A study of Mus musculus with 115 samples.

Results

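The results below cover the 24 constructs of the nucleosomal context, out of 275 constructs measured in the series, and compare 23 of them with the 24th, which carries no motif. A construct is a designed DNA sequence placed at a recombinase-mediated cassette exchange site, a fixed chromosomal position into which cassettes can be swapped. Constructs were chosen by name, as all those labelled nucleosomal in the groups nuc_pool1 to nuc_pool5. The rule uses no measured value, but earlier results of these data were known when it was set. All groups share the mouse embryonic stem cell line 129S6/SvEvTac, with no treatment or genotype named, and each group has 3 libraries, 15 of the 115 in the series. Of the 23 constructs, 17 are named for a motif and 6 are partners of one of these, with the same name and the ending "_r", whose meaning the labels do not give. The construct without a motif was in pool 1 with CTCF, REST, RFX2, ATF4 and BHLHE40. Pool 2 held CUX1, MTF1, ZFP423 and all partners except BANP_r, and pool 3 held 2 constructs, among them OctSox. Pool 4 held ARNTL, BANP, BANP_r, E2F7, GMEB2, SRF, TCF7 and TRP53. Pool 5 repeated ARNTL with values identical to those of pool 4, so ARNTL was counted once and the values rest on 12 libraries.

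Accessibility was read by amplicon NOMe-seq, in which a GpC methyltransferase marks cytosines of DNA that is not covered by protein, and bisulfite sequencing of an amplified fragment then reads the marks. DNA wrapped around a histone octamer is a poor substrate, and DNA under a bound transcription factor is also shielded. A bound factor can therefore leave a narrow low stretch at its motif with accessible DNA on either side, while a positioned nucleosome leaves a broad low stretch. Some factors, such as CTCF and REST, are known to order the nucleosomes beside their sites, and others bind mainly where DNA is already accessible. No expression was measured, so the labelled cell type could not be checked against markers.

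A level below is the percentage of reads called methylated at a GCH site (GC followed by A, C or T), an average over molecules. Library medians lay between 45.1% and 61.0%. Positions were counted along the amplicon, without genome coordinates. The window, the stretch between shared sites 157 and 213, is where the constructs differ in their sites. The near left flank had 4 shared sites (140 to 157), the near right flank 3 (213 to 236), the far left 16 (33 to 132) and the far right 11 (246 to 353). Differences were tested in limma, construct libraries against the 3 libraries without a motif, on the log2 ratio of methylated to unmethylated share. Benjamini-Hochberg adjustment ran over all construct and site rows, or all construct and region rows, with a threshold of 0.05. The deposited values carry no read counts, so the depth behind each level is unknown. Nothing in the labels says that the libraries of a group came from separate cultures, so p-values may measure technical spread.

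The construct without a motif had accessible DNA on the left, a broad low stretch from the window rightward, and partly accessible DNA at the right end. Levels at the sites from 71 to 120 lay between 82.7% and 88.4%. They were 77.8% ± 1.44 at 132 and 57.8% ± 6.38 at 157 (SD, n = 3). The only window site, 189, had 33.3%, 23.7% and 27.9% in the 3 libraries. To its right the lowest level was 15.5% ± 2.91, at 236 (SD, n = 3). The low stretch reached site 259, at 24.8% ± 2.11, and site 292 was at 45.3% ± 6.51 (SD, n = 3). Site 297 was the highest of the right end, at 72.6% ± 0.851 (SD, n = 3). The window and near flanks were thus unequal on the 2 sides, with 67.2% ± 4.25 over the near left sites and 17.5% ± 3.11 over the near right sites (SD, n = 3). A second low stretch, sites 39 to 63, was picked from these data as the 5 sites left of the window with every construct mean under 30%. Its construct means, between 8.20% and 28.7%, are thus low by that rule. None of its 115 differences from no motif passed, which the same rule favours.

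The label nucleosomal was checked against the construct without a motif of the non-nucleosomal context, at the 20 sites that both have. In limma 15 of 20 sites passed (75%), 8 higher and 7 lower in the nucleosomal context. At window site 189 the level was 28.3% ± 4.80 in the nucleosomal and 67.1% ± 4.66 in the non-nucleosomal context (SD, n = 3 each), with adjusted p = 1.13e-08. All 3 nucleosomal libraries (33.3%, 23.7% and 27.9%) lay below all 3 non-nucleosomal ones (61.8%, 68.8% and 70.7%). The near right sites 213, 221 and 236 were also lower, by 23.0, 22.3 and 13.5 percentage points. Sites 292 to 326 were higher in the nucleosomal context, site 297 with 72.6% against 41.5%. Sites 246, 249 and 259 did not pass. Of the 4 shared far left sites, 59 was lower by 60.1 percentage points and 33, 96 and 115 were higher by 51.2, 10.7 and 66.7. The contexts were measured in different pools, so pool and context cannot be told apart, and limma gave every site the same standard error here.

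Against no motif, 84 of 782 construct and site differences passed limma's test (10.7%), 50 higher (6.39%) and 34 lower (4.35%). Of these, 81 were of at least 10 percentage points (10.4%), and at 215 rows the libraries of the 2 constructs did not overlap (27.5%). At an unadjusted p under 0.05 there were 173. Leaving out a library of the pool that holds the reference lowered the count, to 52 without pool 1 replicate 2 and 49 without pool 1 replicate 3. CTCF, REST, BANP and TRP53 held 59 of the 84 at 34 sites each, and the other 19 constructs held 25. By region 24 of 115 differences passed (20.9%). The 115 rows hold 5 regions per construct. Of these, both near flanks together repeats the sites of the 2 near flanks, so its calls are not separate. In the near right flank 9 of 23 constructs were higher (39.1%) and 1 lower (4.35%). With the median of the own pool as reference 5 were higher and 2 lower near right. In the near left flank 3 were higher (13%) and 2 lower (8.7%), and over both near flanks together 5 were higher (21.7%) and 2 lower. Over the far left sites none passed in either direction (0%), with 1 at an unadjusted p under 0.05, and no other tool was run. No site shared with no motif lies in the window, so no window difference from it could be tested.

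CTCF, a zinc finger protein that binds insulators and anchors chromatin loops, had the highest level at every near flank site. Its near right sites were at 84.5%, 85.4% and 88.4% in the 3 libraries, against 20.5%, 14.3% and 17.6% without a motif. This was a difference of 68.6 ± 2.16 percentage points (SE, n = 3 each; limma adjusted p = 3.24e-08), and all CTCF libraries lay far above all libraries without a motif. At site 221 the level was 90.3% ± 2.96 against 19.5% ± 1.90 (SD, n = 3 each). On the left, where DNA was already accessible without a motif, the near sites were at 88.6%, 93.8% and 93.6%. They stood 24.8 ± 2.99 percentage points above no motif (SE, n = 3 each; limma adjusted p = 3.11e-05), again with no overlap. The rise reached outward on the left to site 117 and on the right to site 259. In all, 13 of 34 sites rose and 7 fell.

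Beyond site 259 the CTCF profile turned below that of the construct without a motif. The far right was divided at the gap between sites 259 and 292 after the data were seen, because both directions offset each other in its mean, and the stretches on both sides were adjusted as a family of their own. Over sites 246 to 259 CTCF was at 79.0% ± 2.30 against 22.8% ± 3.31 without a motif (SD, n = 3 each; limma adjusted p = 1.35e-12). Over sites 292 to 353 it was at 18.7%, 24.02% and 21.0%, against 53.5%, 49.8% and 56.7%. The difference there was -32.1 ± 2.53 percentage points (SE, n = 3 each; limma adjusted p = 3.98e-08), and the libraries did not overlap. The greatest fall was 42.5 percentage points at site 313, from 63.4% ± 7.11 to 20.9% ± 3.17 (SD, n = 3 each). So CTCF showed the reverse of the right end of the construct without a motif, high where that was low and low where that was high.

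REST, the zinc finger repressor of neuronal genes in other cells, had nearly the same profile. Near right libraries were at 75.3%, 79.5% and 81.3%, which is 61.2 ± 2.54 percentage points above no motif (SE, n = 3 each; limma adjusted p = 9.56e-08). Near left libraries were at 85.3%, 89.1% and 89.3%, a rise of 20.7 ± 2.78 percentage points (SE, n = 3 each; limma adjusted p = 8.93e-05). No REST library overlapped those without a motif on either side. The rise passed at 11 of 34 sites, outward to 132 on the left and to 259 on the right. The far stretch from 292 to 353 was at 23.4%, 21.2% and 20.6%, lower by 31.6 percentage points (limma adjusted p = 3.98e-08), and all 8 of its sites passed. At site 297 the libraries held 32.1%, 32.6% and 32.2%, against 72.0%, 72.1% and 73.6% without a motif. REST was the only construct lower over the far right as a whole (4.35%), and OctSox the only one higher (4.35%). Without any 1 of the pool 1 libraries there were 0 calls there, and OctSox did not pass against its own pool (limma adjusted p = 0.924). Both CTCF and REST kept their calls at the near flanks and at both right stretches in every alternative that was run.

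BANP, a BEN domain protein that binds CGCG-containing elements at CpG island promoters, came after CTCF and REST at the near right sites. Its libraries there were at 66.1%, 60.9% and 48.6%, more spread than those of CTCF and REST but all above the libraries without a motif. The difference was 41.1 ± 5.48 percentage points (SE, n = 3 each; limma adjusted p = 1.84e-05). On the left the libraries were at 81.1%, 83.1% and 79.6%, higher by 14.0 ± 2.66 percentage points (SE, n = 3 each; limma adjusted p = 0.00266). Of the 4 near left sites, only 157, the one nearest the window, passed alone, with 84.0% ± 4.58 against 57.8% ± 6.38 (SD, n = 3 each). The left call was lost with the near flank widened to 60 bp (limma adjusted p = 0.0829) and in 1 fit over all constructs (0.05004).

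BANP also had the turn beyond site 259. Over 246 to 259 the libraries were at 57.3%, 41.6% and 46.8%, and over 292 to 353 at 38.8%, 23.1% and 34.2%. These were 25.7 ± 5.02 percentage points above and 21.3 ± 5.08 below no motif (SE, n = 3 each; limma adjusted p = 5.58e-06 and 0.000223). The libraries lay outside those without a motif on both stretches. BANP was in another pool than no motif. Against the median of the other constructs of its own pool the near flank calls held (limma adjusted p = 0.00110 right and 0.0166 left), and those of both stretches did not (0.123 and 0.0630).

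TRP53, the p53 tumour suppressor, rose on the right side. Its near right libraries were tightly grouped at 50.2%, 49.1% and 49.0%, above all libraries without a motif by 32.0 ± 1.83 percentage points (SE, n = 3 each; limma adjusted p = 8.54e-06). Near left libraries were at 72.7%, 74.4% and 73.1%. They lay above those without a motif, but the difference of 6.17 ± 2.51 percentage points did not pass (SE, n = 3 each; limma adjusted p = 0.189), and site 157 alone did (0.0330). Sites 246 to 259 were at 47.2% ± 0.517 (SD, n = 3), higher by 24.4 percentage points (limma adjusted p = 2.72e-06). Sites 292 to 353 were at 41.5%, 42.3% and 41.8%, lower by 11.4 percentage points (limma adjusted p = 0.0243). This last call was lost without any 1 of the pool 4 libraries, or without pool 1 replicate 1 or 3 (limma adjusted p between 0.0586 and 0.188). The rise on the right held against the median of its own pool (limma adjusted p = 0.0104 for the near sites and 0.0328 for 246 to 259).

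The near right sites of CTCF, REST, BANP and TRP53 could be ordered in part. Libraries of CTCF lay above those of REST, and those of REST above those of BANP, without overlap. Libraries of BANP and TRP53 overlapped. TRP53 lay above the next construct, OctSox. From OctSox down to OctSox_r, at 13.5%, each construct overlapped its neighbour in the order, and ZFP423 stood below all of these. No motif was 17th of the 24.

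Smaller rises on the right were called for OctSox, SRF, RFX2 and MTF1, among others. OctSox, named for the composite element of the pluripotency factors OCT4 and SOX2, had near right libraries at 27.6%, 23.5% and 43.2% (limma adjusted p = 0.0313). SRF, a MADS-box factor of serum-responsive genes, had 30.2%, 23.6% and 39.6% (limma adjusted p = 0.0199). RFX2, a winged-helix factor of ciliary genes, had 22.2%, 36.7% and 33.3% (limma adjusted p = 0.0211). In each of these the lowest library was close to the highest without a motif, 20.5%, but none overlapped. MTF1, which activates metallothionein genes in response to metals, had 28.6%, 24.1% and 24.3% (limma adjusted p = 0.0345). The means of these 4 constructs stood 8.18 to 13.9 percentage points above no motif, and their near left levels, between 65.6% and 79.2%, did not pass.

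These smaller rises depended on the reference and on single libraries. Without pool 1 replicate 2, the lowest library without a motif, none of the 4 passed at the near right sites (limma adjusted p between 0.121 and 0.260). RFX2 is in pool 1 too, so its own library was left out with that of the reference. Its libraries there were at 36.7% in replicate 2 and 33.3% in replicate 3, and for RFX2 the 2 losses cannot be told apart. Pool 1 replicate 3 also decided the calls of OctSox, RFX2 and MTF1 (0.0668, 0.130 and 0.130 without it). So did pool 3 replicate 3 for OctSox (0.0729) and each library of pool 2 for MTF1 (0.0549 to 0.105). With levels centred on the far left sites the call of OctSox was lost (0.678), and in percent in place of log2 ratios that of MTF1 was (0.0692). Against the median of its own pool MTF1 passed (limma adjusted p = 0.0209), while OctSox (0.935), SRF (0.290) and RFX2 (0.451) did not. Pool 3 holds 2 constructs, so for OctSox this test is a comparison with 1 construct. For RFX2 the median was BHLHE40 in each library, so it is also a comparison with 1 construct.

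Over sites 246 to 259, 10 of 23 constructs were higher (43.5%) and 0 lower (0%). No motif was itself among the lowest there: differences from it had a median of 7.42 percentage points and ranged from -1.63 to 56.2. With the median of the own pool as reference 4 were higher and 3 lower. Besides CTCF, REST, BANP and TRP53, these included OctSox at 42.6% ± 10.6, RFX2 at 41.1% ± 2.53, ARNTL at 40.3% ± 14.0, SRF at 36.7% ± 6.35 and BANP_r at 34.7% ± 13.0 (SD, n = 3 each). The RFX2 libraries, at 39.8%, 39.4% and 44.0%, lay well above the highest without a motif, 25.6%. They also passed against the median of their own pool (limma adjusted p = 0.0122). That median was BHLHE40 in each library, so this is a comparison with 1 construct. The same comparison gave the lower call of BHLHE40. Against their own pools OctSox (0.870), SRF (0.867), ARNTL (0.777) and BANP_r (0.806, with the sign reversed) did not pass. Libraries of ARNTL, the basic helix-loop-helix partner of CLOCK, overlapped those without a motif at 53.3%, 42.2% and 25.4%. Its call was lost without pool 1 replicate 2 (limma adjusted p = 0.147), and BANP_r's without pool 1 replicate 1 or 2 or pool 4 replicate 2 (0.0587 to 0.387). Over 292 to 353 4 of 23 were lower (17.4%), CTCF, REST, BANP and TRP53, and 0 were higher (0%). With the median of the own pool as reference 3 were lower, CTCF, REST and TRP53, and 2 higher, TCF7 and GMEB2.

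Across the 23 constructs, near right differences and differences over 246 to 259 had a Pearson r of 0.95 and a Spearman rho of 0.86. Near right differences and those over 292 to 353 had an r of -0.91 and a rho of -0.54. Without CTCF, REST, BANP and TRP53, the 19 other constructs gave 0.78 and 0.74 for the former and -0.09 and -0.19 for the latter. So the opposite movement of the far right end rested on those 4 constructs. They were the 4 highest near right and the only ones called lower over 292 to 353 against no motif. Leaving them out is therefore a description and not a separate test. All points share the reference without a motif, and many share a pool.

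Whether the change was equal on the 2 sides of the window was tested by the right minus left difference within each library. In 11 of 23 constructs (47.8%) it differed from that of no motif on the log2 scale, 9 toward the right and 2 toward the left. In percent in place of log2 ratios 8 passed. The shift was 2.35 ± 0.21 for CTCF, 2.28 ± 0.09 for REST, 1.75 ± 0.09 for TRP53 and 1.64 ± 0.24 for BANP (log2, SE, n = 3 each; limma adjusted p = 0.000438, 1.42e-05, 3.43e-05 and 0.00220). It was 1.09 ± 0.15 for RFX2, 1.08 ± 0.12 for SRF and 0.74 ± 0.08 for MTF1 (log2, SE, n = 3 each; limma adjusted p = 0.00182, 0.000959 and 0.000841). For these 3 constructs the left level was within 1.61 percentage points of no motif. BHLHE40, a basic helix-loop-helix repressor, also shifted to the right, by 0.59 ± 0.16 (log2, SE, n = 3; limma adjusted p = 0.0287). Its near right libraries, at 24.96%, 22.5% and 26.4%, did not overlap those without a motif but did not pass (limma adjusted p = 0.0552). In BANP_r the shift of 1.05 ± 0.20 (log2, SE, n = 3; limma adjusted p = 0.00727) came with a lower left side. OctSox_r and ZFP423 shifted by -0.36 ± 0.10 and -0.52 ± 0.09 (log2, SE, n = 3; limma adjusted p = 0.0259 and 0.00425). In percentage points ZFP423 was lower by 12.9 on the left and 9.96 on the right, so its direction depended on the scale. OctSox, whose means were higher on both sides, showed no shift past the test (limma adjusted p = 0.916).

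ZFP423, a zinc finger factor of neural and fat cell development, was lower than no motif on both sides. Its near right libraries were at 9.71%, 6.09% and 6.71%, below all libraries without a motif by 9.96 ± 2.11 percentage points (SE, n = 3 each; limma adjusted p = 0.00188). Near left libraries were at 59.4%, 50.9% and 52.5%, lower by 12.9 ± 3.58 percentage points (SE, n = 3 each; limma adjusted p = 0.0237). Sites 157, 213 and 221 passed alone, the lowest being 213 at 5.11% ± 1.27 (SD, n = 3). Against the median of its own pool both sides passed (limma adjusted p = 0.0112 right and 0.0166 left). The left call was lost without pool 1 replicate 1 or 3 or pool 2 replicate 2 or 3 (0.0574 to 0.124), with centring on the far left sites (0.166) and in 1 fit over all constructs (0.205), and the right call with the flank widened to 60 bp (0.0829). Of the 3 zinc finger constructs in the list used, CTCF, REST and ZFP423, 2 were higher and 1 lower at each near flank, against 39.1% and 4.35% of all constructs near right and 13% and 8.7% near left. The list leaves out MTF1, also a zinc finger factor, which was higher near right and did not pass near left.

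BANP_r was lower on the left. Its near left libraries were at 39.1%, 46.6% and 47.9%, all below those without a motif, with a difference of -22.7 ± 3.68 percentage points (SE, n = 3 each; limma adjusted p = 0.000835). Its level dropped toward the window, with 49.1% ± 6.28 at 148, 39.9% ± 5.17 at 150 and 34.3% ± 2.20 at 157 (SD, n = 3), which all passed. No motif also dropped, from 69.8% at 150 to 57.8% at 157. The greatest difference from no motif was -29.9 percentage points, at 150. Near right it was at 14.9% ± 4.14 (SD, n = 3; limma adjusted p = 0.642). Its first library stood apart over the far left, at 44.1% against 62.8% and 61.1%. That of ARNTL did as well, at 30.3% against 62.7% and 61.3%, while TRP53 and SRF in the same library were at 61.8% and 63.2%. With levels centred on the far left sites the near left call of BANP_r was lost (limma adjusted p = 0.774). ARNTL near left libraries spread from 36.2% to 81.4% around those without a motif and did not pass (0.678).

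CTCF_r differed at far left sites in place of the flanks. Sites 33, 71, 96, 99, 115 and 120 were at 70.1% to 75.9%, lower than no motif by 12.3 to 15.9 percentage points (limma adjusted p between 0.0223 and 0.0443). Its far left region libraries, at 57.9%, 56.6% and 56.9%, lay below 64.1%, 61.6% and 64.8% without a motif. The region did not pass (0.166). Replicate 3 of CTCF_r stood apart in both directions there, which offset each other in the region mean. At site 39 it was at 33.5% against 15.9% and 15.4%. At site 96 it was at 62.0% against 78.4% and 77.0%, all below the lowest library without a motif, 87.4%. Near right it was also apart, at 34.9% against 18.9% and 16.7%. The near left libraries of CTCF_r, at 60.8%, 58.9% and 60.4%, also lay below those without a motif and did not pass (0.153). TCF7, an HMG-box factor of Wnt signalling, was lower at site 115 alone, at 76.3% ± 1.51 (SD, n = 3; limma adjusted p = 0.0249).

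The remaining constructs had no site past the test. They were ATF4, a bZIP factor of the stress response, BHLHE40, the cut-homeodomain factor CUX1, the atypical E2F repressor E2F7, GMEB2, the MTF1 motif, and the partners ATF4_r, OctSox_r, REST_r and TRP53_r. Of these, only MTF1 passed at a region. Near right means were 17.3% for ATF4, 15.4% for CUX1, 23.2% for E2F7 and 19.1% for GMEB2, on either side of the 17.5% without a motif. Near left they were 66.7%, 64.1%, 61.5% and 58.7%, against 67.2%. ATF4 site differences lay between -4.71 and 7.25 percentage points over 34 sites. At site 249 ATF4, BHLHE40, CUX1 and E2F7 had their highest difference. So did, among others, ARNTL, OctSox, RFX2, MTF1, ATF4_r, REST_r and TRP53_r. No motif was at 25.4% there, below every construct mean (lowest 26.1%, median 36.9%). Against the median of their own pools, GMEB2 was lower near left (limma adjusted p = 0.0490) and ATF4 near right (0.0166), and ATF4 and BHLHE40 were lower over 246 to 259 (0.00670 and 0.0122). None of these passed against no motif. For ATF4 and BHLHE40 that pool median includes CTCF and REST. For BHLHE40 over 246 to 259 the median was RFX2 in each library, so its call repeats the comparison of RFX2 with BHLHE40. The 2 listed E-box constructs, ARNTL and BHLHE40, had 0 calls at the near flanks, where 39.1% of all constructs were higher on the right and 13% on the left, and ARNTL alone was called over 246 to 259 (43.5% of all). The 6 partners had 0 calls near right, with means from 13.5% to 23.5%, and 1 lower near left, BANP_r. Over all partners, at 34 sites each, 9 differences passed, and all were lower. Of these, 6 were of CTCF_r and 3 of BANP_r, so they do not describe the partners as a set. Over all constructs 34 of 782 site differences were lower (4.35%) and 50 higher (6.39%).

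Inside the window constructs have different sites, and levels are given as a description. CTCF had the lowest sites, with 3.48% ± 1.62 at 182, 3.21% ± 2.33 at 193, 3.32% ± 2.52 at 195 and 3.80% ± 1.504 at 200 (SD, n = 3). These sat between 28.5% ± 2.25 at 177 and 50.7% ± 1.24 at the last site of the window (SD, n = 3), so the low stretch had sharp edges inside the window. REST was low over all of its 5 sites, up to 201, with means between 7.79% and 14.0%. BANP had 13.8% ± 9.39 at 181 and 58.4% ± 1.72 at the last site of the window (SD, n = 3). Between these, its libraries were at 23.3%, a listed 0% and 8.32% at 187. At 196 they were at 16.6%, 0.169% and 2.71%, with the same library the highest and the same the lowest at both sites.

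RFX2 had means of 8.53% to 21.6% over 4 sites and ZFP423 8.12% to 18.9% over 5. The 2 had low windows with near right flanks of 30.7% and 7.50%, one above and one below no motif. TRP53 sites were at 20.5% to 35.4% and SRF sites at 26.4% to 40.8%, around the 28.3% of no motif at 189. OctSox was at 15.8% to 27.0%.

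The partner was used as a second reference, which also has window sites in common. Over the 6 pairs 78 of 218 sites passed (35.8%), 52 higher (23.9%) and 26 lower (11.9%) in the construct than in its partner. For CTCF 21 sites were higher and 9 lower of 36, among them 11 of the 16 far left sites, where CTCF_r was itself lower than no motif. At window site 200 CTCF was at 5.52%, 3.10% and 2.77% and CTCF_r at 18.3%, 15.7% and 34.6% (limma adjusted p = 0.00169). The CTCF libraries lay below all those of the partner there, and at 177 the groups overlapped and did not pass.

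For REST 10 sites were higher and 11 lower of 37. All 3 common window sites were lower, by 25.7 percentage points at the first, 30.7 at 183 and 13.9 at 201 (limma adjusted p = 0.00118, 0.000397 and 0.0219). At 183 the REST libraries were at 9.70%, 8.39% and 9.36% and those of REST_r at 50.9%, 34.4% and 34.4%, without overlap. All 8 sites from 292 to 353 were lower for REST, as they were for CTCF.

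BANP and BANP_r, the only pair within a pool, differed at 8 sites higher and 2 lower of 37. The last site of the window was at 60.04%, 58.6% and 56.6% for BANP and at 15.6%, 13.9% and 12.1% for BANP_r, a difference of 44.6 ± 1.42 percentage points (SE, n = 3 each; limma adjusted p = 0.000188). Window sites 181 and 196 did not pass. Near left the pair differed by 36.7 percentage points on average and near right by 43.7, with all 4 and all 3 sites past the test. On the left BANP was 14.0 percentage points above and BANP_r 22.7 below no motif.

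TRP53 was higher at 7 and lower at 4 of 36 sites, and OctSox higher at 6 and lower at 0, all of these 6 between 213 and 259. For ATF4 none of 36 sites passed in limma. Neither TRP53, OctSox nor ATF4 passed at a window site. Apart from BANP, the pairs lie in different pools, so partner and pool cannot be told apart.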

How the data were processed

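Amplicon NOMe-seq was measured in 3 libraries per pool. Phenol and chloroform extraction, bisulfite conversion, PCR and NEBNext library preparation are described in the labels' protocols. The submitters' processing notes name Trimmomatic 0.32 for trimming, and the aligner, caller, genome build and any coverage filter are not given in the sources used here. Each deposited value is a fraction methylated per GCH position, construct and library, without counts, so no counting interval or floor is given and the count-based form of the test was not used. Of 2868 values 150 were missing, and positions with a value in every library of both groups were used.

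Levels were tested as M = log2((f + 0.01)/(1 - f + 0.01)) in limma 3.58.1 (R 4.3.3), with its moderated variances and Benjamini-Hochberg adjusted p-values over 782 site rows or 115 region rows. Tables were made in Python 3.11.15, numpy 2.4.6 and pandas 2.3.3, and the fit was tested on simulated data. An exact permutation test of 3 against 3 libraries cannot go below p = 0.1, so none is given. Means and SDs are in percent methylated. The window, the near flanks of 40 bp, the members and the lists were chosen with earlier results of these data known. One construct counted in the totals is not reported here. Values in every library are given for the others called at the near flanks or with 3 or more called sites of at least 10 percentage points. Alternatives changed the scale, pseudocount, flank width, reference, centring, libraries and pairing. Between pools, replicate numbers do not pair libraries: of 18 same-numbered pairs of groups 5 had deviations correlated over 0.1, with a range from -0.28 to 0.41. Within a pool the same number is the same library, which the main test did not use.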

Additional observations from a re-analysis of the deposited data

How the results depend on the processing

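Of 324 recomputed counts of calls, 275 stayed within 1.5 times the value reported, 40 were lower and 9 higher. Of 405 recomputed differences of single constructs 349 kept direction and side of the threshold, 55 lost the call and 1 changed sign, BANP_r over the right stretch up to site 259 against the pool median (-0.26, log2). Leaving out 1 library, or 1 replicate number in all pools, gave 46 to 104 site calls (30 to 60 higher, 15 to 48 lower) and 15 to 31 region calls. By region it gave 5 to 12 near right, 4 to 9 near left, 4 to 8 at both near flanks together, 0 to 1 far left and 0 to 4 far right. Between contexts 4 to 10 sites were then lower. Centring on the far left sites gave 22 lower sites, 4 calls at both near flanks and 5 far right. Centring on all far sites gave 4 and 4. Near flanks of 25 bp gave 8 calls near left and 1 far right, and flanks of 60 bp 4 far right. Without the 5 low sites from 39 to 63 there were 2 calls far left and 0 far right. The pool median as reference gave 6 higher calls over the right stretches and 1 far right. One fit over all constructs gave 3 near left, 1 far left and 1 far right. With the replicate number as a block, 67 site calls, 22 region calls, 1 far right and 9 shifts between sides (without BHLHE40 and OctSox_r) passed. So did 67 partner sites and 13 sites between contexts. The pairing check does not back this block between pools. For the constructs of pool 1 against no motif, and for BANP against BANP_r, the block matches shared libraries. The window region could not be run. The cause of these changes was not tested. Without read counts, the depth limit on each level is unknown, and the reference of 3 libraries enters every difference.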
